A study of Mus musculus with 24 samples.

Results

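LCL161 was compared with vehicle in cells sorted as CD45+CD8+ from the spleen, in 6 of the 24 libraries of the series, taken by their labels. Of these, 3 libraries came from mice given LCL161 and 3 from mice given vehicle. All mice of both groups were TCRα-/-, with the alpha chain gene of the T cell receptor disrupted, and bore tumors that M8 organoids, cultured clusters of pancreatic tumor cells, had formed in the pancreas. The dose of LCL161 was 75 mg/kg by mouth, given 3 times at 3-day intervals beginning on day 4, and spleens were taken on day 12. The series has no wild-type mice and no mice without a tumor, and the sources used here do not give age, strain or sex. Nothing in the labels says that the replicates are separate mice, so the p-values rest on a spread between libraries. That spread was estimated within the 8 groups of all 24 libraries, not from these 6 alone. The other libraries used here are the spleen CD45+CD4+ and the tumor CD45+CD8+ cells of the same design, 3 libraries with LCL161 and 3 with vehicle each.

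LCL161 imitates SMAC, the mitochondrial protein that binds the inhibitor of apoptosis proteins, and it drives cIAP1 (gene Birc2) and cIAP2 (gene Birc3) to degradation. Both are ubiquitin ligases that, with TRAF2 and TRAF3, keep the kinase NIK (gene Map3k14) at a low level. When they are lost, NIK accumulates, the p100 product of Nfkb2 is processed to p52, and p52 with RelB switches on the alternative NF-kB pathway, the pathway that costimulatory receptors of the TNF receptor family also use. NF-kB in turn induces inhibitors of its own signal, among them IκBα (gene Nfkbia) and A20 (gene Tnfaip3). In these mice the alpha chain gene of the T cell receptor is disrupted, so a CD8 sort cannot be read as conventional alpha beta T cells. Gamma delta T cells can carry CD8, and the cross-presenting dendritic cells of the mouse spleen, known as cDC1, carry the CD8 alpha chain.

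The markers place T cells and dendritic cells in the sorted population. Markers of other cell types were present too, with vehicle sums of 3326, 4553 and 6382 CPM for B cells and 5652, 10418 and 6291 CPM for plasma cells. Cd8a, the CD8 alpha chain, had 623, 565 and 776 CPM in the LCL161 libraries, against 622, 584 and 590.4 CPM in the vehicle libraries. Cd8b1, the beta chain that T cells carry and cDC1 do not, had 500.0, 703 and 731 CPM with LCL161, against 767, 435 and 665 CPM with vehicle. Cd4 had 10.9, 7.07 and 8.05 CPM with LCL161, against 8.94, 13.7 and 7.86 CPM with vehicle. The groups overlapped for all 3 genes. Trac, the constant region of the alpha chain, had 12.2, 21.1 and 20.2 CPM with LCL161, against 9.3, 11.1 and 10.6 CPM with vehicle, and Trdc, the constant region of the delta chain, had 912, 941 and 1292 CPM with LCL161, against 626, 567 and 698 CPM with vehicle. Trbc2, a constant region of the beta chain, had 481, 457 and 577 CPM with LCL161, against 358, 310.1 and 328 CPM with vehicle. All 19 cDC1 markers were detected, and their summed level was 1125, 4235 and 2397 CPM in the LCL161 libraries, against 7540, 8085 and 7156 CPM in the vehicle libraries. The data therefore go against reading the label CD8 T cell as T cells alone, and the cells are called CD8-sorted cells. Levels are in CPM, the counts of a gene divided by the scaled size of its library. In bulk samples a change in the number of cells of a type and a change in RNA per cell cannot be told apart, and the part of a shift in cell makeup in the results that follow was not tested.

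**Figure D1:**
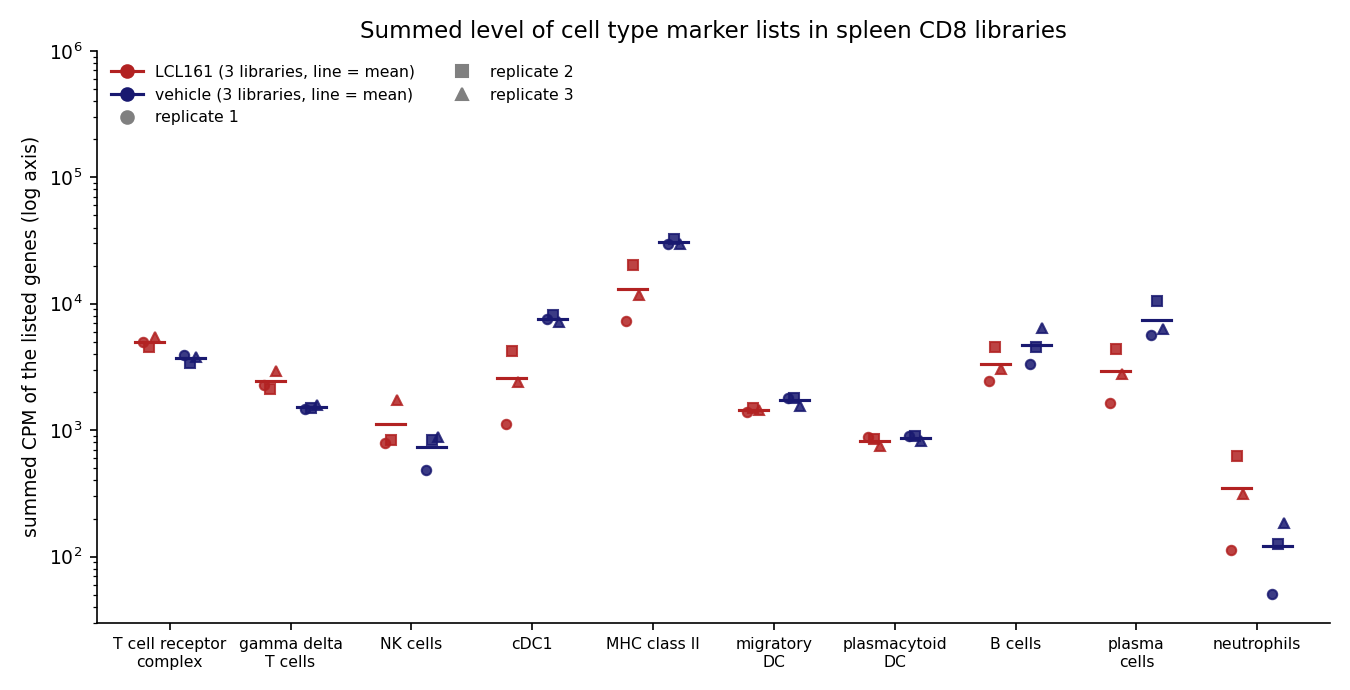
Summed CPM (log axis) of the genes of 10 marker lists in each spleen CD8 library, LCL161 in red left of vehicle in dark blue, with symbols for the replicates and a line for the mean of 3 libraries. The cDC1 and MHC class II sums of the LCL161 libraries lie below all vehicle libraries, the T cell receptor complex and gamma delta sums lie above them, and the plasmacytoid dendritic cell sums overlap.

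The libraries held 18155562 to 20293270 counts with LCL161, against 20747288 to 22805151 counts with vehicle. Of 20174 genes tested, 1670 passed an adjusted p of 0.05 in edgeR's quasi-likelihood test with Benjamini-Hochberg adjustment, 827 higher (4.1%) and 843 lower (4.18%) with LCL161. These shares are the background for each count of list members below. The split moved with the setting, with 643 higher and 900 lower under RLE scaling, 345 and 645 with no filter, 1109 and 1420 by DESeq2, and 880 and 1477 with only the libraries compared. Without vehicle replicate 1 it was 142 and 401, and without LCL161 replicate 1 it was 645 and 1057. More genes were instead higher than lower with no scaling (975 and 797), by limma voom (3902 and 3239) and without LCL161 replicate 2 (564 and 547). The groups did not overlap for 4257 genes that were higher in every LCL161 library (21.1%) and for 3589 that were lower in every one (17.8%). The median log2 fold change of all genes was 0.06. The first principal component, with 45.9% of the variance, separated the treatments, and the second, with 23.3%, set LCL161 replicate 1 apart from LCL161 replicates 2 and 3. The count of genes past the threshold was 246 without LCL161 replicate 3 and between 537 and 823 without 1 of the vehicle replicates. Of 174 genes of the naming rule that passed, 42 passed whichever of the 6 libraries was left out, and 131 were lost without LCL161 replicate 3.

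Several genes of the IκB family and of NF-kB feedback rose with LCL161 in the CD8-sorted cells, and not all of them are inhibitors of NF-kB. Of 20 genes of the IκB family and NF-kB feedback, 7 were higher and 0 lower, against 4.1% and 4.18% of all genes tested, with a median log2 fold change of 0.40 (0.06 over all genes). Nfkbiz encodes the atypical IκB protein IκBζ and lies on chromosome 16, 55811375 to 55838899. It had 160.2, 55.6 and 127 CPM in the LCL161 libraries, against 13.3, 15.3 and 13.3 CPM in the vehicle libraries. Every LCL161 library was above every vehicle library, with LCL161 replicate 2 the lowest of the treated libraries (log2 fold change 3.03 ± 0.42, adjusted p = 0.0005, edgeR). Nfkbia, the gene of the classical inhibitor IκBα on chromosome 12, 55489410 to 55492647, had 626, 496 and 805 CPM with LCL161, against 209.8, 185 and 175 CPM with vehicle and again did not overlap (log2 fold change 1.76 ± 0.19, adjusted p = 8.5e-05, edgeR). Bcl3, an atypical IκB protein that works with p50 and p52, had 209.9, 189 and 214 CPM with LCL161, against 94.7, 82.6 and 69.1 CPM with vehicle (log2 fold change 1.31 ± 0.17, adjusted p = 0.00032, edgeR). Its 3 LCL161 libraries were close together and all above the vehicle libraries.

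Tnfaip3, the ubiquitin editing enzyme A20, had 263, 131 and 262 CPM with LCL161, against 67.4, 83.4 and 69.7 CPM with vehicle, with LCL161 replicate 2 again the lowest treated library (log2 fold change 1.57 ± 0.32, adjusted p = 0.0078, edgeR). Zc3h12a, the RNase Regnase-1 that degrades cytokine transcripts, had 39.3, 10.03 and 13.8 CPM with LCL161, against 5.72, 5.33 and 5.72 CPM with vehicle (log2 fold change 1.91 ± 0.42, adjusted p = 0.01, edgeR). Its treated libraries were spread widely, with replicate 1 far above the other two. Tnip3, a partner of A20, rose from a low level (1.95 ± 0.50), and Traf1, an adaptor of TNF receptors, rose less (0.63 ± 0.15). The count of higher members was 5, 7 and 4 without LCL161 replicates 1, 2 and 3, and 4, 5 and 5 without vehicle replicates 1, 2 and 3. Nfkbiz, Nfkbia and Bcl3 passed in every one of these 6 fits.

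The promoters of these genes are shown because the NF-kB consensus motif can be read in most of those for which a sequence is at hand. RefSeq windows of 300 bases on GRCm38.p6, from 250 bases before to 50 bases after a transcript start, were at hand for 6 of the 7 genes that rose. The motif, searched on both strands and with overlapping matches allowed, was in windows of 4 of these 6 genes and of 8 of the 18 list members with a window, against 1427 of 11763 genes tested that have one (12.1%). It was in 12.8% of the genes that rose and 13.7% of those that fell over the whole table, and in 2779 of all 32851 mouse windows (8.46%), some genes having more than 1 window. No motif was found in the windows of Zc3h12a and Traf1, and no window was at hand for Nfkbiz. Outside the list, the window of Birc3 held no motif and those of Nfkb2 did. Of the genes that rose in other lists, 0 of 4 survival and adhesion genes and 2 of 2 chemokines with a window had it. So did 8 of 18 MHC class I presentation genes, a list in which no gene passed, so the share does not set the feedback genes apart. The windows below are those of Nfkbia (chr12:55492598-55492897, minus strand), Bcl3 (chr7:19822706-19823005, minus strand), Tnfaip3 (chr10:19015361-19015660, minus strand, the first of its pair of windows), Tnip3 (chr6:65590148-65590447, plus strand) and the chemokine gene Cxcl10 (chr5:92348840-92349139, minus strand), picked after values and motifs had been seen. They run 5′ to 3′ on the strand of the gene, with the bases of the motif in capitals.
Nfkbia: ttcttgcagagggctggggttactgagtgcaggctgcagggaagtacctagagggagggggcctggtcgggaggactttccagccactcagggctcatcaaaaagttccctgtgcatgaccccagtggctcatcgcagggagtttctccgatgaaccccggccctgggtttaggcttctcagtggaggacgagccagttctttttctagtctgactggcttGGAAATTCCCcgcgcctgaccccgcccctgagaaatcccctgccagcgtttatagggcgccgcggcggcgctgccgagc
Bcl3: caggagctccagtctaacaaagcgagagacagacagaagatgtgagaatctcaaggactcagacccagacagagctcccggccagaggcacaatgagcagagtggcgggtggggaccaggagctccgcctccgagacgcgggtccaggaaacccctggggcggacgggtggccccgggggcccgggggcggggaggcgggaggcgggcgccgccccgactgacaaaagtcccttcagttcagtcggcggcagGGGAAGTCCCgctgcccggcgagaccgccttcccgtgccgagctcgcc
Tnfaip3: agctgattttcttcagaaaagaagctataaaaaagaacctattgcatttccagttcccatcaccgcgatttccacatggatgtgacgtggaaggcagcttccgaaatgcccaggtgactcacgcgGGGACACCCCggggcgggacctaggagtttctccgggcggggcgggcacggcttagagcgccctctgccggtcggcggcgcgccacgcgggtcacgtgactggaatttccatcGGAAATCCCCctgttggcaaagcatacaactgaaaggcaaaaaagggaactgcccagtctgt
Tnip3: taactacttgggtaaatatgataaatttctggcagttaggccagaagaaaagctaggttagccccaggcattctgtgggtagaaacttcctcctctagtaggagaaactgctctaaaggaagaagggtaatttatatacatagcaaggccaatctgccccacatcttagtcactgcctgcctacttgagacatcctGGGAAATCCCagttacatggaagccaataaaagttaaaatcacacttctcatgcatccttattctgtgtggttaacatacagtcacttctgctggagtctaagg
Cxcl10: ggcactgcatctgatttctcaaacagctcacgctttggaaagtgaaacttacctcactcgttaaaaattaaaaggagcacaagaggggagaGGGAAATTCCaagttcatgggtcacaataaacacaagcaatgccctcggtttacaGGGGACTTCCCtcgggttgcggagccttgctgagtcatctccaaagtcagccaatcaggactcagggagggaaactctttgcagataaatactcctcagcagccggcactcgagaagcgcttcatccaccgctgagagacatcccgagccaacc
The motif began 29 bases before the start in Nfkbia, 54 bases before it in Tnip3, and 125 and 12 bases before it in Tnfaip3. In Bcl3 it began at base 3 after the start. In Cxcl10 matches began 159, 104 and 103 bases before the start. A match describes the letters of a window and is not a measured binding site.

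Among the drug targets and their partners there were calls in both directions. Birc2 (cIAP1) had 65.4, 61 and 65.9 CPM with LCL161, against 66.3, 66.3 and 55.8 CPM with vehicle, and the groups overlapped (log2 fold change 0.03 ± 0.22, adjusted p = 0.96, edgeR). Birc3 (cIAP2), itself an NF-kB target, rose, with 153, 186 and 173 CPM with LCL161, against 89.3, 117 and 91.9 CPM with vehicle (log2 fold change 0.78 ± 0.17, adjusted p = 0.0093, edgeR). Xiap, the other inhibitor of apoptosis protein that SMAC binds, had 24, 20.3 and 18.1 CPM with LCL161, against 22.8, 24.7 and 24.8 CPM with vehicle and did not pass (log2 fold change -0.21 ± 0.22, adjusted p = 0.57, edgeR). Casp8, the initiator caspase of death receptors, rose slightly (0.37 ± 0.10), and Casp9, the initiator caspase of the mitochondrial pathway, fell (-0.92 ± 0.21). In all, 2 of 13 members were higher and 1 lower (4.1% and 4.18% of all genes). The counts of higher members were 2, 1 and 0 without LCL161 replicates 1, 2 and 3, and 0, 1 and 0 without vehicle replicates 1, 2 and 3. Transcript levels do not report the amount of the cIAP proteins, which LCL161 removes.

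Within the alternative NF-kB pathway 3 of 14 genes rose and 2 fell (4.1% and 4.18% of all genes). Nfkb2 had 391, 205 and 243 CPM with LCL161, against 168, 145 and 172 CPM with vehicle, with LCL161 replicate 1 well above the rest (log2 fold change 0.79 ± 0.24, adjusted p = 0.047, edgeR), and 11.6% of its exon bases overlap another gene model. Relb had 211, 149.9 and 181 CPM with LCL161, against 115, 117 and 115 CPM with vehicle (log2 fold change 0.64 ± 0.18, adjusted p = 0.037, edgeR), and Traf2 rose by 0.65 ± 0.15. Against these, Map3k14, the gene of NIK, had 22.6, 16.3 and 16.3 CPM with LCL161, against 46.9, 45.5 and 40.4 CPM with vehicle, with all treated libraries below all vehicle libraries (log2 fold change -1.26 ± 0.27, adjusted p = 0.0093, edgeR). Tnfrsf11a, the receptor RANK, fell furthest in the list, with 3.61, 5.86 and 2.85 CPM with LCL161, against 24.6, 23.9 and 19.6 CPM with vehicle (log2 fold change -2.47 ± 0.43, adjusted p = 0.0027, edgeR). The higher members numbered 0, 3 and 0 without LCL161 replicates 1, 2 and 3, and 0, 1 and 0 without vehicle replicates 1, 2 and 3; Tnfrsf11a passed in all 6 fits and Map3k14 in all but that without LCL161 replicate 3.

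Of 16 classical subunits and kinases, 1 rose and 1 fell, near the shares of all genes tested (4.1% and 4.18%). Nfkb1, which encodes p105 and p50, had 61.9, 67.3 and 56.5 CPM with LCL161, against 89.1, 111 and 90.8 CPM with vehicle (log2 fold change -0.65 ± 0.13, adjusted p = 0.0065, edgeR). Rela, the p65 subunit, had 247, 253 and 239.9 CPM with LCL161, against 225, 189.8 and 201 CPM with vehicle and did not pass (0.26 ± 0.12, adjusted p = 0.17 by edgeR). Bcl10, the adaptor that carries antigen receptor signals to the IκB kinase, rose by 0.39 ± 0.11. Map3k8, the kinase TPL2 that p105 holds inactive, is no list member but was among the 25 largest rises, with 46.7, 29.7 and 39.5 CPM with LCL161, against 13.1, 11.7 and 10.9 CPM with vehicle (log2 fold change 1.70 ± 0.31, adjusted p = 0.0045, edgeR). Of 22 survival and adhesion genes that NF-kB induces, 4 rose and 0 fell, with a median log2 fold change of 0.43: the adhesion molecule Icam1 (0.84), of whose exon bases 11.7% overlap a neighbour, the AP-1 subunit Junb (0.92), the stress gene Gadd45b (1.09) and the early response gene Ier5 (0.61). The survival factor Mcl1 had 474, 553 and 454 CPM with LCL161, against 674, 587 and 638 CPM with vehicle and did not pass (adjusted p = 0.055 by edgeR), with all treated libraries below the vehicle libraries. The 4 became 2, 4 and 0 without LCL161 replicates 1, 2 and 3, and 1, 1 and 1 without vehicle replicates 1, 2 and 3.

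**Figure D2:**
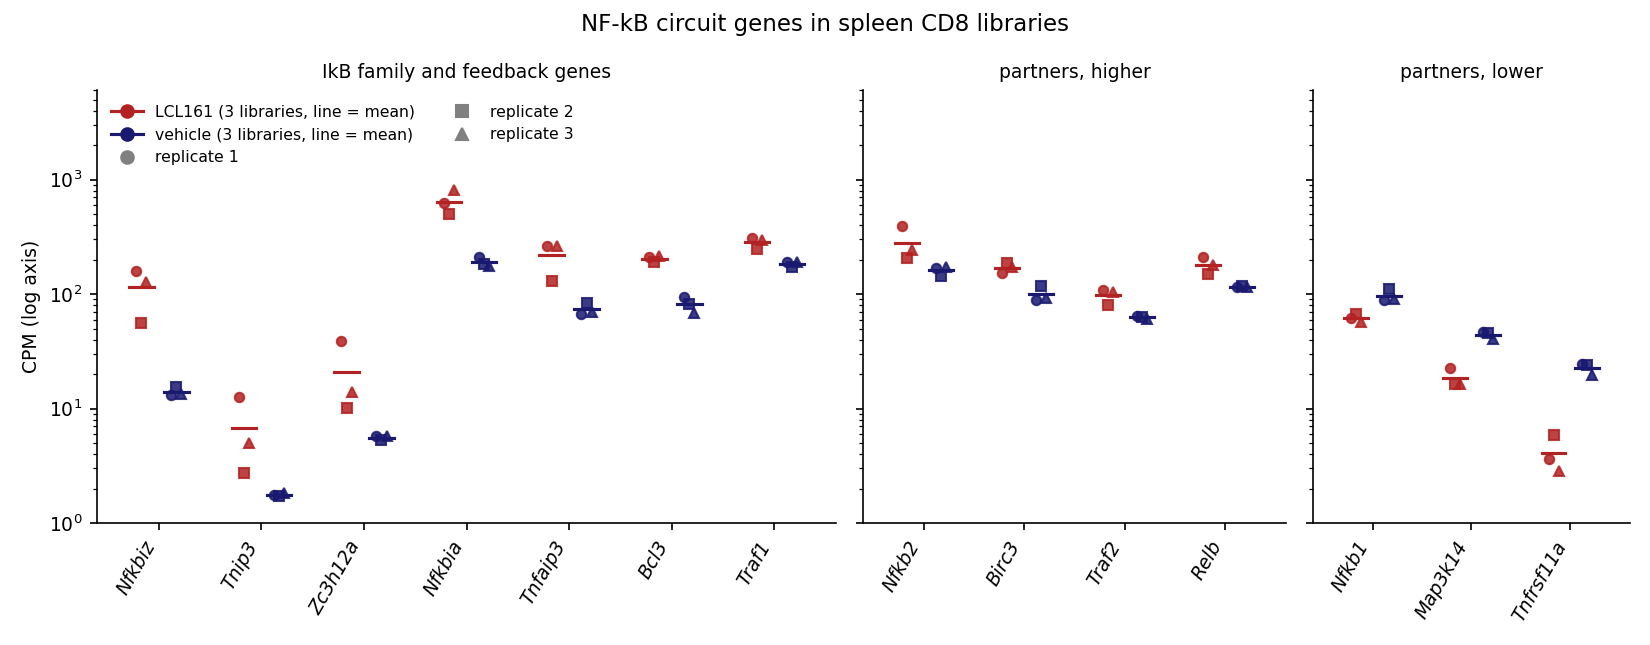
CPM (log axis) of 14 genes of the NF-kB circuit in each spleen CD8 library, LCL161 in red left of vehicle in dark blue, with symbols for the replicates and a line for the mean of 3 libraries. The 7 feedback genes and 4 partners lie higher with LCL161 in every library, and Nfkb1, Map3k14 and Tnfrsf11a lie lower in every library.

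Of 22 effector genes of killer lymphocytes 4 were higher and 0 lower, with large differences between the treated libraries. In all, 12 were higher in every LCL161 library than in every vehicle library (21.1% of all genes). Gzmb, granzyme B, had 453, 310.1 and 897 CPM in the LCL161 libraries, against 51, 91.5 and 108 CPM in the vehicle libraries (log2 fold change 2.73 ± 0.66, adjusted p = 0.018, edgeR). LCL161 replicate 3 had the highest level and replicate 2 the lowest. Fasl, the ligand of the death receptor Fas, had 91.1, 78 and 148 CPM with LCL161, against 23.5, 33.5 and 47.9 CPM with vehicle (log2 fold change 1.60 ± 0.45, adjusted p = 0.034, edgeR), and Stx11, a syntaxin needed for granule release, had 99.5, 62.9 and 100.3 CPM with LCL161, against 32.3, 42.3 and 40.7 CPM with vehicle (log2 fold change 1.19 ± 0.30, adjusted p = 0.022, edgeR). Ctsw, the protease cathepsin W of killer cells, rose by 0.79 ± 0.20. Gzma had 413, 445 and 1219 CPM with LCL161, against 105, 377 and 392 CPM with vehicle, a spread in which the groups overlapped (1.25 ± 0.64, adjusted p = 0.23 by edgeR), and Gzmk did not overlap but did not pass either (adjusted p = 0.16 by edgeR). The count of 4 became 3, 4 and 0 without LCL161 replicates 1, 2 and 3, and 0, 0 and 0 without vehicle replicates 1, 2 and 3.

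The cytokine genes were mostly low. Of 18 tested, 2 rose and 1 fell (4.1% and 4.18% of all genes). Ifng, the interferon gamma gene on chromosome 10, 118441046 to 118445892, had 64.5, 29.3 and 97.7 CPM with LCL161, against 6.04, 14.1 and 10.8 CPM with vehicle (log2 fold change 2.63 ± 0.67, adjusted p = 0.023, edgeR), and 25.9% of its exon bases overlap another gene model. Lta, lymphotoxin alpha, which signals through TNF receptors, had 18.3, 15.3 and 23.4 CPM with LCL161, against 8.05, 5.9 and 7.18 CPM with vehicle (log2 fold change 1.43 ± 0.35, adjusted p = 0.018, edgeR). The groups did not overlap for either gene, and both lost the call without LCL161 replicate 3 and without any 1 vehicle replicate. Tgfb1, the immunosuppressive cytokine TGF-β1, fell, with 108, 64 and 73.6 CPM with LCL161, against 177, 162 and 175 CPM with vehicle (log2 fold change -1.06 ± 0.16, adjusted p = 0.0014, edgeR), and passed with each of the 6 libraries left out. Il17a, the interleukin 17A gene, had 0, 1.21 and 5.3 CPM with LCL161, against 0, 0.132 and 0 CPM with vehicle and did not pass (adjusted p = 0.071 by edgeR). Among 19 chemokines 3 rose (4.1% of all genes). Cxcl10, which attracts CXCR3-bearing T cells, had 44.2, 32.1 and 83.9 CPM with LCL161, against 10.4, 5.81 and 10.04 CPM with vehicle (log2 fold change 2.61 ± 0.51, adjusted p = 0.0057, edgeR). The other calls, Ccl2 and Cxcl2, stayed under 5 CPM in every library. Ccl3, a chemokine of activated T cells, had 54.2, 35.4 and 43.1 CPM with LCL161, against 7.15, 11.2 and 7.62 CPM with vehicle and did not pass (adjusted p = 0.065 by edgeR).

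Of 17 costimulatory members of the TNF families 6 were higher and 0 lower, with a median log2 fold change of 1.26. Tnfrsf9, the receptor 4-1BB induced on activated T cells, had 191, 101 and 207 CPM with LCL161, against 32.7, 29.3 and 25.1 CPM with vehicle (log2 fold change 2.52 ± 0.70, adjusted p = 0.035, edgeR). Tnfrsf18, the receptor GITR, had 68.8, 77.1 and 124 CPM with LCL161, against 39.4, 37.4 and 35.3 CPM with vehicle (log2 fold change 1.26 ± 0.25, adjusted p = 0.0061, edgeR), though 27.2% of its exon bases overlap another gene model. Treated replicate 3 was the highest for both. Among the ligands, Tnfsf9, the ligand of 4-1BB, had 12.6, 9.32 and 17 CPM with LCL161, against 2.46, 5.19 and 4.03 CPM with vehicle (log2 fold change 1.73 ± 0.38, adjusted p = 0.0098, edgeR; 14.9% of its exon bases overlap a neighbour), and Tnfsf14, the ligand LIGHT of the receptor HVEM, had 32.6, 18 and 34.6 CPM with LCL161, against 10.2, 10.4 and 14.4 CPM with vehicle (log2 fold change 1.28 ± 0.25, adjusted p = 0.0053, edgeR). Tnfsf4, the ligand of OX40, and Tnfsf13b, the B cell factor BAFF, rose by 2.43 ± 0.62 and 2.01 ± 0.58, the second of them at 2.16 CPM at most. The count of higher members was 4, 5 and 0 without LCL161 replicates 1, 2 and 3, and 2, 3 and 3 without vehicle replicates 1, 2 and 3.

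Of 16 genes listed with the inhibitory receptors, the ligand PD-L2 among them, 3 were higher and 0 lower (4.1% and 4.18% of all genes). Tigit, the inhibitory receptor for CD155, had 34.7, 20.1 and 53.2 CPM with LCL161, against 4.56, 8.5 and 6.4 CPM with vehicle, did not overlap between groups and passed in all 6 leave-one-out fits (log2 fold change 2.47 ± 0.47, adjusted p = 0.0052, edgeR). Lilrb4a, an inhibitory receptor of myeloid and activated lymphoid cells, had 39.8, 24.8 and 49.9 CPM with LCL161, against 10.1, 15.5 and 12.7 CPM with vehicle (log2 fold change 1.58 ± 0.30, adjusted p = 0.0053, edgeR), though 35.3% of its exon bases overlap another gene model. Pdcd1lg2, the ligand PD-L2, rose by 1.13 ± 0.30. Pdcd1, the receptor PD-1, had 47.5, 47.7 and 109 CPM with LCL161, against 18.2, 22.9 and 9.46 CPM with vehicle, and Ctla4 had 6.64, 5.86 and 12.9 CPM with LCL161, against 1.92, 3.79 and 0.291 CPM with vehicle. Both were higher in every treated library, but neither passed (adjusted p = 0.11 and 0.086 by edgeR). The count was 3, 3 and 1 without LCL161 replicates 1, 2 and 3, and 2, 2 and 2 without vehicle replicates 1, 2 and 3.

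Of 22 activation and early response genes 4 were higher and 0 lower (4.1% and 4.18% of all genes). Cd69, an early activation marker that also holds lymphocytes in tissue, had 373, 370.4 and 518 CPM with LCL161, against 109, 107 and 96.7 CPM with vehicle, with all LCL161 libraries far above the vehicle libraries (log2 fold change 2.02 ± 0.23, adjusted p = 0.00012, edgeR). The other calls were the phosphatases Dusp1 (1.21) and Dusp2 (1.04) and the early response gene Ier2 (0.91). That count was 4, 4 and 1 without LCL161 replicates 1, 2 and 3, and 2, 3 and 1 without vehicle replicates 1, 2 and 3. The summed level of the list was 3787, 3788 and 3947 CPM with LCL161, against 3981, 3885 and 4042 CPM with vehicle, with overlap. The interleukin 2 receptor alpha chain Il2ra and Myc were higher in every treated library and missed the threshold (adjusted p = 0.054 and 0.057 by edgeR). Of 16 AP-1 and BATF family genes 2 were higher, Batf and Junb, and 0 lower. In that list 11 genes had a negative log2 fold change, with a median of -0.22. Batf, a transcription factor of effector T cells, had 88.9, 79.9 and 122 CPM with LCL161, against 37.5, 37.2 and 38.7 CPM with vehicle (log2 fold change 1.36 ± 0.27, adjusted p = 0.0067, edgeR).

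Feedback genes of cytokine receptors rose as well, with 4 of 19 higher and 0 lower. Cish, an inhibitor of interleukin 2 and T cell receptor signals, had 103, 87.8 and 161 CPM with LCL161, against 28.9, 24.2 and 42.5 CPM with vehicle (log2 fold change 1.88 ± 0.38, adjusted p = 0.0069, edgeR). Socs1 and Socs3, inhibitors of JAK kinases, rose by 0.94 ± 0.20 and 0.96 ± 0.24. Il12rb2, a chain of the interleukin 12 receptor, rose by 1.28 ± 0.35, with 40% of its exon bases in overlap with a neighbour. The count was 3, 3 and 0 without LCL161 replicates 1, 2 and 3, and 3, 2 and 2 without vehicle replicates 1, 2 and 3. Gadd45g, a stress gene that promotes interferon gamma production in T cells, had 57.5, 60.9 and 85.6 CPM with LCL161, against 10.7, 17.8 and 11.3 CPM with vehicle (log2 fold change 2.36 ± 0.31, adjusted p = 0.00034, edgeR). Rgs1, which dampens chemokine receptor signals, had 116, 80.4 and 179.6 CPM with LCL161, against 26.5, 37.3 and 33.5 CPM with vehicle (log2 fold change 1.95 ± 0.36, adjusted p = 0.004, edgeR). Sh2d2a, a T cell adaptor, and Gpr171, a receptor of T cells, rose by 1.19 ± 0.21 and 1.23 ± 0.18. These 4 genes passed in all 6 leave-one-out fits. Arg1, arginase 1 of myeloid cells, was also among the largest rises, with 10.5 CPM in LCL161 replicate 3 and at most 2.74 CPM in the other 5 libraries.

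**Figure D3:**
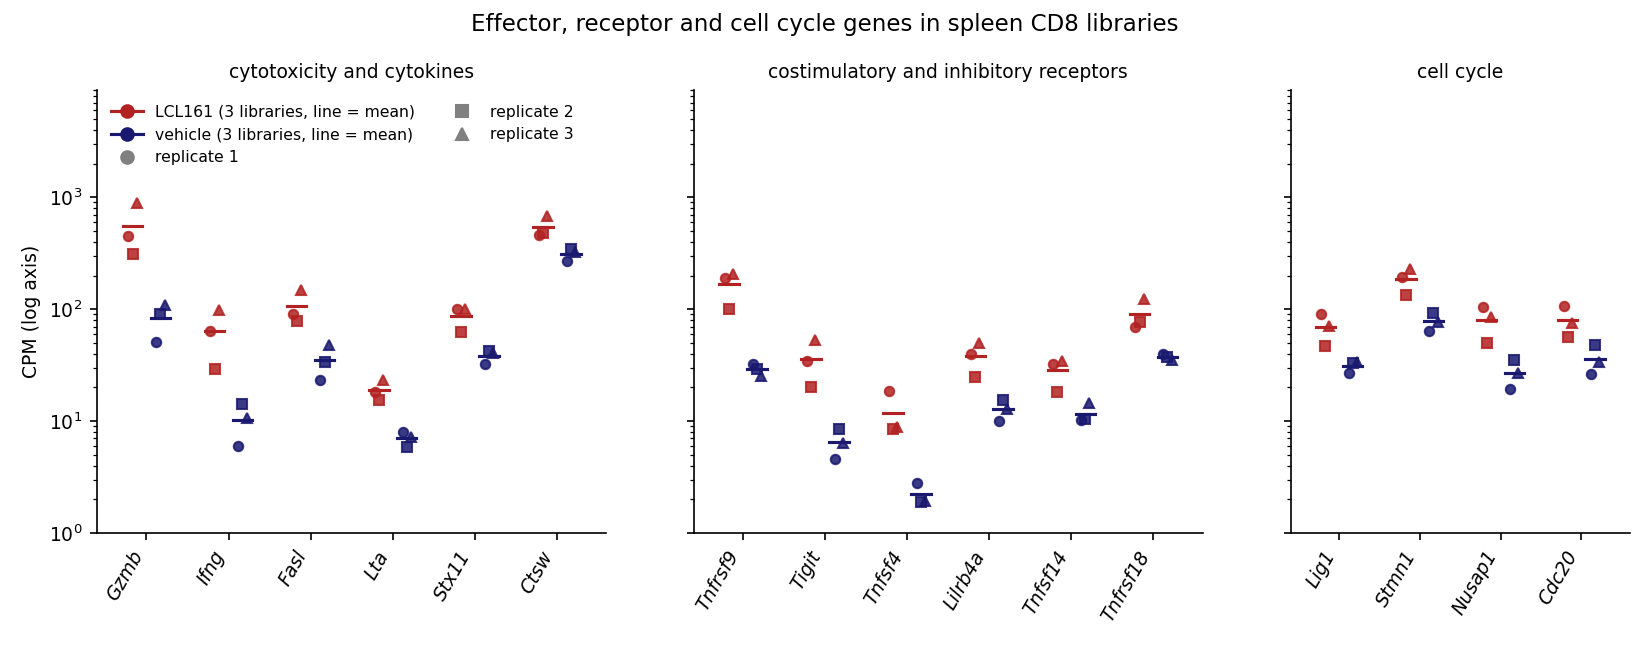
CPM (log axis) of 16 effector, receptor and cell cycle genes in each spleen CD8 library, LCL161 in red left of vehicle in dark blue, with symbols for the replicates and a line for the mean of 3 libraries. Every LCL161 library lies above every vehicle library for each gene, and LCL161 replicate 2 is the lowest treated library for all of them but Ctsw and Tnfrsf18.

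The killer cell lectin-like receptors were higher in summed level but gave a single call. Their sum was 1331, 1232 and 1962 CPM with LCL161, against 529.6, 849 and 942 CPM with vehicle, above all vehicle libraries in every treated library, and 7 of 23 members were higher and 2 lower without overlap (21.1% and 17.8% of all genes). The 1 that rose was Klrb1f, with 62.1, 19.1 and 46.6 CPM with LCL161, against 7.47, 13.6 and 9.36 CPM with vehicle (log2 fold change 2.07 ± 0.45, adjusted p = 0.01, edgeR). Klrc1, the inhibitory NKG2A chain, and Klrd1, its CD94 partner, were higher in every treated library and did not pass (adjusted p = 0.17 and 0.087 by edgeR). Of 12 NK markers 0 passed, their sum was 786, 832 and 1717 CPM with LCL161, against 487, 839.9 and 878 CPM with vehicle, with overlap, and the defining NK receptor Ncr1 had 2.46, 3.95 and 2.8 CPM with LCL161, against 3.62, 4.4 and 7.18 CPM with vehicle. Of 14 genes of the T cell receptor complex 3 rose: Cd3g (0.81), the kinase Lck (0.51) and the adaptor Skap1 (0.76). Their list sum was 4946, 4515 and 5500 CPM with LCL161, against 3901, 3422 and 3820 CPM with vehicle, higher in every treated library. Of 10 gamma delta markers tested, 0 passed, and their sum was 2296, 2133 and 2950 CPM with LCL161, against 1458, 1502 and 1595 CPM with vehicle. 

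Of 21 transcription factors of effector and memory T cells 0 rose and 2 fell, Bcl6 and Zbtb7b (4.18% of all genes fell). Bcl6 is a repressor protein that drives the follicular helper fate and is also active in cDC1. It had 15.9, 18.5 and 12.7 CPM with LCL161, against 46.1, 48.2 and 48.6 CPM with vehicle (log2 fold change -1.60 ± 0.30, adjusted p = 0.0048, edgeR). Zbtb7b, the CD4 lineage factor ThPOK, had 2.31, 3.07 and 2.94 CPM with LCL161, against 8.4, 9.51 and 8.88 CPM with vehicle (log2 fold change -1.69 ± 0.21, adjusted p = 0.00025, edgeR). Both groups of 3 were clear of each other, and both calls held with each library left out. Klf4, a factor outside that list that restrains proliferation and is also active in myeloid cells, had 0.674, 0.658 and 0.589 CPM with LCL161, against 4.92, 6.91 and 4.56 CPM with vehicle (log2 fold change -3.08 ± 0.60, adjusted p = 0.0058, edgeR). Of 15 naive and memory T cell genes 0 passed. Il7r, the interleukin 7 receptor, had 604, 671 and 619 CPM with LCL161, against 345, 402 and 356 CPM with vehicle, and Klf2, a factor of naive T cells, had 318, 347 and 264 CPM with LCL161, against 572, 554 and 607 CPM with vehicle. They did not overlap, in opposite directions, and did not pass (adjusted p = 0.14 and 0.26 by edgeR).

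Many genes of cell division were higher. Of 32 DNA replication and S phase genes 15 were higher and 0 lower, with a median log2 fold change of 0.78, and of 30 mitosis and G2/M genes 8 were higher and 0 lower, with a median of 1.14. Lig1, the ligase that joins fragments of the lagging strand, had 90.9, 47.2 and 71.1 CPM with LCL161, against 27.2, 33.3 and 33.7 CPM with vehicle (log2 fold change 1.15 ± 0.24, adjusted p = 0.0085, edgeR). Pcna, the clamp of the DNA polymerases, had 201, 157 and 211 CPM with LCL161, against 109.7, 115 and 107 CPM with vehicle (log2 fold change 0.78 ± 0.17, adjusted p = 0.0093, edgeR). Treated replicate 2 was the lowest of its group for both genes. Stmn1, a microtubule regulator of dividing cells, rose by 1.25 ± 0.27.

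Among the mitotic genes Nusap1, a spindle protein, had 106, 50.3 and 84.9 CPM with LCL161, against 19.4, 34.9 and 27 CPM with vehicle (log2 fold change 1.57 ± 0.43, adjusted p = 0.032, edgeR), and Cdc20, the activator of the anaphase-promoting complex, had 106, 56.8 and 75.1 CPM with LCL161, against 26.2, 47.6 and 34.1 CPM with vehicle (log2 fold change 1.14 ± 0.31, adjusted p = 0.029, edgeR). Birc5, the inhibitor of apoptosis family member survivin that acts in mitosis, rose by 1.25 ± 0.36. Mki67, the proliferation marker Ki-67, had 92.8, 25.4 and 33.6 CPM with LCL161, against 28.3, 51.1 and 34.9 CPM with vehicle and overlapped between the groups (log2 fold change 0.41 ± 0.55, adjusted p = 0.68, edgeR). In treated libraries it was high in replicate 1 only. The S phase count was 7, 19 and 1 without LCL161 replicates 1, 2 and 3, and 1, 10 and 4 without vehicle replicates 1, 2 and 3, and the mitosis count was 0, 11 and 0 without LCL161 replicates 1, 2 and 3, and 0, 4 and 0 without vehicle replicates 1, 2 and 3.

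Genes of cDC1 were lower with LCL161. All 19 cDC1 markers had a negative log2 fold change, with a median of -1.53, 18 were lower in every treated library than in every vehicle library (17.8% of all genes), and 6 passed the threshold. Wdfy4, which cDC1 need for cross-presentation, had 61.2, 104 and 55.2 CPM with LCL161, against 732, 745 and 719 CPM with vehicle (log2 fold change -3.32 ± 0.57, adjusted p = 0.0026, edgeR). Xcr1, the chemokine receptor that defines cDC1, had 18.5, 126 and 68.8 CPM with LCL161, against 348, 364 and 327 CPM with vehicle (log2 fold change -2.28 ± 0.57, adjusted p = 0.021, edgeR). Clec9a, the receptor for dead cells, had 5.01, 34.1 and 16.6 CPM with LCL161, against 70.3, 84.8 and 77.5 CPM with vehicle and did not pass (log2 fold change -2.06 ± 0.92, adjusted p = 0.17, edgeR), and Irf8, the factor of the lineage, had 417, 701 and 453 CPM with LCL161, against 1519, 1524 and 1423 CPM with vehicle (log2 fold change -1.51 ± 0.54, adjusted p = 0.09, edgeR). In Xcr1, Clec9a and Irf8 the treated libraries followed the same order, with replicate 1 lowest and replicate 2 highest. Wdfy4 was lowest in replicate 3, and it passed with each library left out. The other calls were Tlr3, Tlr12, Ppt1 and Snx22, from -1.90 for Tlr3 to -0.37 for Snx22, of whose exon bases 28.5% overlap a neighbour. The count of 6 was 3, 8 and 1 without LCL161 replicates 1, 2 and 3, and 1, 1 and 1 without vehicle replicates 1, 2 and 3.

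Migratory dendritic cells, which have matured and carry antigen to T cell zones, gave 3 lower and 1 higher gene of 15. Log2 fold changes were negative for 11 of the 15 and positive for 4. Apol7c, an apolipoprotein L family member, had 23.6, 19 and 14 CPM with LCL161, against 251, 177 and 142 CPM with vehicle (log2 fold change -3.33 ± 0.39, adjusted p = 0.00012, edgeR). Fscn1, the actin bundling protein of mature dendritic cells, had 20.5, 12.7 and 11.9 CPM with LCL161, against 83.8, 105 and 77.6 CPM with vehicle (log2 fold change -2.56 ± 0.52, adjusted p = 0.0076, edgeR), and Cacnb3, a calcium channel subunit, had 5.54, 4.33 and 3.68 CPM with LCL161, against 18.4, 27.7 and 21.3 CPM with vehicle (log2 fold change -2.31 ± 0.50, adjusted p = 0.0097, edgeR). The member that rose is Relb, described above with NF-kB. Unlike Xcr1, these 3 falling genes were highest in replicate 1 among the treated libraries. The lower members numbered 3, 3 and 1 without LCL161 replicates 1, 2 and 3, and 3, 3 and 3 without vehicle replicates 1, 2 and 3. Of 15 other conventional dendritic cell genes 2 were lower and 0 higher (4.18% and 4.1% of all genes), with 12 negative and 3 positive log2 fold changes. Among them Zbtb46, the factor that marks the conventional lineage, had 29.4, 37.5 and 25.6 CPM with LCL161, against 89.8, 111 and 113 CPM with vehicle (log2 fold change -1.76 ± 0.43, adjusted p = 0.018, edgeR). The other call, Cd209e, was lost whichever of the 6 libraries was left out. Flt3, the receptor of the dendritic cell growth factor, had 39.4, 160.3 and 83.7 CPM with LCL161, against 245, 306 and 243 CPM with vehicle and did not pass (adjusted p = 0.13 by edgeR).

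MHC class II genes were lower in level but mostly missed the threshold. Their summed level was 7349, 20325 and 11746 CPM with LCL161, against 29740, 32462 and 29503 CPM with vehicle. Ciita, the master activator of the class II genes, was the only 1 of 14 that passed, with 68.5, 127 and 68.1 CPM with LCL161, against 264, 291 and 283 CPM with vehicle (log2 fold change -1.67 ± 0.41, adjusted p = 0.019, edgeR), and it was lost without LCL161 replicate 1 or 3 and without vehicle replicate 1 or 3. Cd74, the invariant chain, had 3416, 8234 and 4733 CPM with LCL161, against 13245, 14310 and 13091 CPM with vehicle (log2 fold change -1.31 ± 0.43, adjusted p = 0.065, edgeR), and H2-Ab1 had 1409, 4948 and 2813 CPM with LCL161, against 6910, 7489 and 6880 CPM with vehicle (log2 fold change -1.21 ± 0.49, adjusted p = 0.13, edgeR). As with Xcr1, treated replicate 1 was lowest and replicate 2 highest. Plasmacytoid dendritic cell markers gave 0 calls of 16, and their sum was 879, 855 and 745 CPM with LCL161, against 899, 900.2 and 817 CPM with vehicle, with overlap.

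Other large falls were spread over genes of several functions. Anpep, the aminopeptidase CD13 of myeloid cells, had 4.48, 16.5 and 8.2 CPM with LCL161, against 96, 95.8 and 89 CPM with vehicle (log2 fold change -3.27 ± 0.56, adjusted p = 0.0025, edgeR). Cbfa2t3, a transcriptional co-repressor, had 12.7, 18.6 and 10.9 CPM with LCL161, against 112, 106 and 114 CPM with vehicle (log2 fold change -2.98 ± 0.56, adjusted p = 0.0046, edgeR), and Lrrc25, a regulator of innate signals, had 0.193, 1.42 and 1.03 CPM with LCL161, against 10.5, 8.36 and 10.3 CPM with vehicle (log2 fold change -3.46 ± 0.59, adjusted p = 0.0025, edgeR). Ece1, the endothelin-converting enzyme, had 58.1, 167 and 90.5 CPM with LCL161, against 404, 420.3 and 385 CPM with vehicle (log2 fold change -1.94 ± 0.33, adjusted p = 0.0025, edgeR). These 4 passed in all 6 leave-one-out fits. Among abundant genes Psap, the precursor of the lysosomal saposins, had 1346, 3186 and 1874 CPM with LCL161, against 5363, 6131 and 5799 CPM with vehicle (log2 fold change -1.43 ± 0.32, adjusted p = 0.012, edgeR), and Tln1, the integrin activator talin 1, had 554, 276 and 328 CPM with LCL161, against 876, 882 and 955 CPM with vehicle (log2 fold change -1.23 ± 0.28, adjusted p = 0.012, edgeR). Psap kept the order of Xcr1 in the treated libraries, while Tln1 was highest in replicate 1. Of 22 monocyte and macrophage genes tested 1 was higher and 2 lower, with a median log2 fold change of 0.03 and a sum of 1191, 1608 and 1568 CPM with LCL161, against 1319, 1186 and 1655 CPM with vehicle, which overlapped. Csf1r, the receptor of the macrophage growth factor, fell, with 12.9, 14.4 and 17.3 CPM with LCL161, against 30.04, 51.5 and 42.4 CPM with vehicle (log2 fold change -1.48 ± 0.33, adjusted p = 0.011, edgeR), and 15.1% of its exon bases overlap a gene on the opposite strand. The adhesion molecule gene Vcam1 had 13.2, 16.3 and 15.4 CPM with LCL161, against 28.6, 27.4 and 36.4 CPM with vehicle, and Trem2, a receptor of macrophages, passed as higher at 0, 0.658 and 0.883 CPM with LCL161, against 0, 0 and 0 CPM with vehicle.

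Markers of the remaining cell types gave few calls, though several of their summed levels did not overlap. The 17 neutrophil markers all had a positive log2 fold change, 0 passed, and their sum was 114, 619.9 and 313 CPM with LCL161, against 50.2, 127 and 185 CPM with vehicle, with overlap. B cell markers gave 0 calls of 16, with a sum of 2445, 4561 and 3058 CPM with LCL161, against 3326, 4553 and 6382 CPM with vehicle, which overlapped. Plasma cell markers gave 0 calls of 14, but 13 had a negative log2 fold change, with a median of -1.23, and 7 were lower without overlap (17.8% of all genes). Their sum was 1646, 4376 and 2791 CPM with LCL161, against 5652, 10418 and 6291 CPM with vehicle, lower in every treated library. The sum of 12 markers of mast cells and basophils, of which 0 passed, was 42.5, 84.1 and 52.1 CPM with LCL161, against 133, 177 and 167 CPM with vehicle, again without overlap. All 14 acinar genes tested had a positive log2 fold change, with a median of 2.97 and 0 calls, and their sum was 9.68, 6.8 and 11.5 CPM with LCL161, against 2.91, 6.25 and 3.15 CPM with vehicle, low but higher in every treated library. Of 11 erythroid and 10 platelet markers tested 0 passed, and both sums overlapped. The ductal and tumor epithelial sum was 90.2, 138 and 143 CPM with LCL161, against 168, 193 and 151 CPM with vehicle, lower in every treated library. Of 11 ductal and tumor epithelial genes tested, Krt19 rose, at 0.337, 0.0548 and 0.834 CPM with LCL161, against 0, 0 and 0 CPM with vehicle, and the protease inhibitor gene Spint2 fell by 0.60 ± 0.17 on the log2 scale. The fibroblast and endothelial sum was 74, 81.3 and 60.7 CPM with LCL161, against 118, 149.9 and 125 CPM with vehicle, also lower in every treated library, and of 12 genes tested Vwf, the von Willebrand factor of endothelium, fell, with 4.67, 4.99 and 3.34 CPM with LCL161, against 9.03, 11.7 and 13.7 CPM with vehicle. Their part in the results was not tested.

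Interferon response and MHC class I genes gave no call. Of 25 type I interferon response genes 0 passed, with a median log2 fold change of 0.19, and Ifit1, an antiviral RNA-binding protein, had 19.5, 55.2 and 91.4 CPM with LCL161, against 33.8, 14.3 and 36.4 CPM with vehicle. Of 18 GTPase genes induced by interferon gamma 0 passed, with a median of 0.23, although Ifng itself rose. Gbp3, a guanylate-binding protein, had 86.7, 53.4 and 98.9 CPM with LCL161, against 52, 50.9 and 50.6 CPM with vehicle (adjusted p = 0.1 by edgeR). Of 20 MHC class I presentation genes 0 passed, with H2-Q7 at 0.52 ± 0.18 (adjusted p = 0.078 by edgeR). A p that misses the threshold does not show that these levels were alike.

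Genes of energy metabolism gave calls in the higher direction. Of 13 mitochondrially encoded genes tested 8 were higher and 0 lower, with a median log2 fold change of 0.43. mt-Co1, a subunit of cytochrome oxidase, had 3795, 5021 and 4507 CPM with LCL161, against 2905, 2855 and 2867 CPM with vehicle (log2 fold change 0.63 ± 0.10, adjusted p = 0.0022, edgeR), and mt-Nd1, a subunit of complex I, had 1058, 1262 and 1145 CPM with LCL161, against 801, 808 and 749.5 CPM with vehicle (log2 fold change 0.55 ± 0.11, adjusted p = 0.0056, edgeR). Over all symbols that begin with mt-, a wider set than these 13 genes, the share of all counts was 2.10, 2.37 and 2.12% with LCL161, against 1.52, 1.52 and 1.46% with vehicle. Of 38 nuclear oxidative phosphorylation genes 5 were higher and 0 lower, with Sdhb of complex II at 234, 221 and 254 CPM with LCL161, against 165, 167 and 165 CPM with vehicle (log2 fold change 0.51 ± 0.12, adjusted p = 0.017, edgeR), and 32 were higher in every treated library (21.1% of all genes). The mitochondrial count was 8, 4 and 2 without LCL161 replicates 1, 2 and 3, and 7, 5 and 3 without vehicle replicates 1, 2 and 3, and the nuclear count was 4, 3 and 0 without LCL161 replicates 1, 2 and 3, and 0, 0 and 0 without vehicle replicates 1, 2 and 3. With a correction for transcript length and GC content, chosen after the data were seen, the mitochondrial count was 0 and the nuclear count 11.

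In glycolysis 1 of 23 genes rose and 2 fell, against 4.1% and 4.18% of all genes tested. Pfkfb3, which makes the activator of phosphofructokinase, had 27.6, 27.3 and 24 CPM with LCL161, against 49.5, 63.7 and 53 CPM with vehicle (log2 fold change -1.07 ± 0.18, adjusted p = 0.0027, edgeR), and Hk2, a hexokinase, had 6.11, 6.63 and 5.69 CPM with LCL161, against 17.4, 15.5 and 22.8 CPM with vehicle (log2 fold change -1.59 ± 0.38, adjusted p = 0.016, edgeR), while Gapdh rose by 0.58 ± 0.17. Odc1, the rate-limiting enzyme of polyamine synthesis, had 180.3, 178 and 229 CPM with LCL161, against 70.7, 76.2 and 74.6 CPM with vehicle, with no overlap (log2 fold change 1.41 ± 0.27, adjusted p = 0.0058, edgeR). It was 1 of 3 amino acid and polyamine genes of 19 that rose. Of 14 serpin genes tested 6 rose, among them Serpina3f, with 142, 130.0 and 206 CPM with LCL161, against 20.1, 34.6 and 28.7 CPM with vehicle (log2 fold change 2.52 ± 0.53, adjusted p = 0.0084, edgeR), and Serpina3g, with 1050, 1173 and 1442 CPM with LCL161, against 354, 670.3 and 395 CPM with vehicle (log2 fold change 1.37 ± 0.41, adjusted p = 0.044, edgeR). The Serpina3 genes are near-identical copies, and how the authors' counting divided their reads is uncertain. The serpin count was 2, 2 and 0 without LCL161 replicates 1, 2 and 3, and 0, 5 and 1 without vehicle replicates 1, 2 and 3.

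The effect of LCL161 on a gene moved with the length of its transcript. Over 11520 genes with a mean of at least 5 CPM in the 6 libraries, the median log2 fold change was 0.21 in the shortest of 5 length bins (38 to 813 bases) and -0.29 in the longest (from 3471.5 bases). In the shortest bin 174 genes were higher and 79 lower, and in the longest 18 were higher and 304 lower. Across genes, which are not independent replicates, Spearman's rho was -0.34 with length and -0.13 with GC content. The genes that rose had a median transcript length of 1214 bases and those that fell of 2916 bases, against 1652 bases for all genes tested. The shift was uneven between treated libraries: against the mean of the vehicle libraries, the medians of the shortest and longest bins were 0.07 and -0.11 in LCL161 replicate 1, 0.21 and -0.35 in replicate 2 and 0.26 and -0.45 in replicate 3. In the other populations the same medians were 0.19 and -0.19 for spleen CD4 cells and 0.04 and -0.11 for tumor CD8 cells. With a correction for length, added after the data were seen, 893 genes were higher and 594 lower, so 60.05% of calls were higher, against 49.5% without it. The sources used here give no RNA quality values, and their part in this pattern was not tested.

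**Figure D4:**
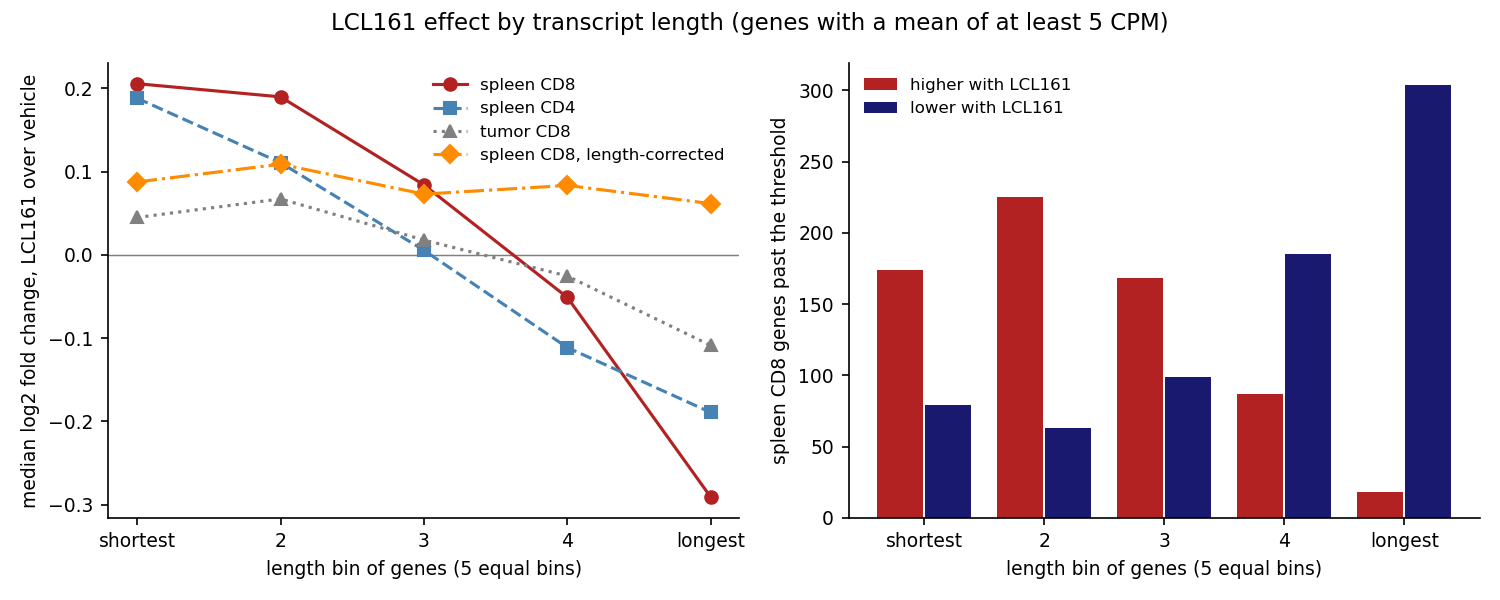
Left, median log2 fold change of LCL161 over vehicle in 5 bins of 11520 genes by transcript length, in spleen CD8, spleen CD4 and tumor CD8 cells and in spleen CD8 cells after a length correction. Right, numbers of spleen CD8 genes past the threshold in each bin, higher with LCL161 in red left of lower in dark blue. Calls go from 174 higher and 79 lower in the shortest bin to 18 higher and 304 lower in the longest.

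Of the 174 named genes past the threshold, 157 still passed with the length correction and 148 with the correction for length and GC content, and 0 of them changed sign. Of the named genes that had not passed, Xiap and Cd8b1 changed sign under both corrections. The NF-kB feedback list had 8 higher members of 20 under either correction. MHC class II lost its call, and cDC1 had 3 and 4 lower members under the first and second correction.

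The effect of LCL161 differed between spleen CD8 and spleen CD4 cells for a small set of genes. A test of the difference of effects passed for 59 of 20174 genes (0.292%), 12 with a higher and 47 with a lower effect in CD8 cells. The naming rule covers 21 of them. Gadd45g had a log2 fold change of 2.36 ± 0.31 in CD8 cells, against 0.04 ± 0.30 in CD4 cells (difference 2.32 ± 0.43, adjusted p = 0.026, edgeR). Gpr171 had 1.23 ± 0.18 in CD8 cells, against -0.15 ± 0.17 in CD4 cells (difference 1.38 ± 0.25, adjusted p = 0.026, edgeR). Bcl6 fell in CD8 cells, against 0.64 ± 0.29 in CD4 cells (difference -2.24 ± 0.42, adjusted p = 0.028, edgeR), and Zbtb7b likewise, against 0.13 ± 0.20 (difference -1.81 ± 0.29, adjusted p = 0.026, edgeR). Tgfb1 fell in CD8 cells, against 0.20 ± 0.16 in CD4 cells (difference -1.26 ± 0.23, adjusted p = 0.026, edgeR). The dendritic cell factor Zbtb46 had -1.76 ± 0.43, against 1.32 ± 0.43 (difference -3.09 ± 0.61, adjusted p = 0.039, edgeR). Sla2, an adaptor that dampens T cell receptor signals, had 0.50 ± 0.12, against -0.42 ± 0.12, though a gene on the opposite strand overlaps 23.6% of its exon bases. The small GTPase gene Arf3 had -1.08 ± 0.12, against -0.14 ± 0.12, and Arrb1, beta-arrestin 1, had -2.35 ± 0.33, against 0.19 ± 0.31.

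Opposite signs in the 2 populations were also seen for the 9 genes that follow, as for those just described other than Gadd45g and Arf3. The SE was large beside some of these effects, such as 0.88 ± 0.65 for Trgv2 in CD8 cells. Opposite directions are therefore not established for each gene. Trgv2, a variable segment of the gamma chain, had 0.88 ± 0.65, against -3.77 ± 0.73 (difference 4.65 ± 0.97, adjusted p = 0.0499, edgeR), with 149, 136 and 204 CPM with LCL161, against 91.7, 90.6 and 84 CPM with vehicle in CD8 cells. Palld, the actin-associated protein palladin, had -2.72 ± 0.58, against 1.62 ± 0.52 (difference -4.34 ± 0.78, adjusted p = 0.026, edgeR), with 0.578, 0.712 and 1.08 CPM with LCL161, against 5.63, 5.46 and 4.61 CPM with vehicle in CD8 cells, and its fall there passed whichever of the 6 libraries was left out. The calcium sensor gene Ncald had 1.20 ± 0.35, against -1.22 ± 0.35 (difference 2.41 ± 0.49, adjusted p = 0.045, edgeR), and Cd7, a surface receptor of T and NK cells, had 0.38 ± 0.25, against -1.41 ± 0.25 (difference 1.79 ± 0.36, adjusted p = 0.04, edgeR). Tes, the focal adhesion protein testin, had 0.49 ± 0.10, against -0.21 ± 0.10 (difference 0.69 ± 0.15, adjusted p = 0.0499, edgeR). Cebpa, a transcription factor of myeloid cells, had -2.07 ± 0.51, against 1.17 ± 0.45 (difference -3.24 ± 0.68, adjusted p = 0.0499, edgeR). Arc, a gene of activated neurons that migratory dendritic cells also use, had -0.94 ± 0.33, against 1.58 ± 0.33 (difference -2.52 ± 0.47, adjusted p = 0.026, edgeR). Nme4, a nucleoside diphosphate kinase of mitochondria, had -0.89 ± 0.33, against 1.55 ± 0.35 (difference -2.44 ± 0.48, adjusted p = 0.039, edgeR), and Fam131a had -2.03 ± 0.35, against 0.47 ± 0.34 (difference -2.50 ± 0.48, adjusted p = 0.035, edgeR). A gene on the opposite strand overlaps 10.8% of the exon bases of Cd7. Of these 9 genes Trgv2, Cd7, Arc and Nme4 did not pass in CD8 cells alone. The count of 59 was 0 without vehicle CD8 replicate 1 or 2, 1 without LCL161 CD8 replicate 3 and 314 without LCL161 CD8 replicate 1.

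Against tumor CD8 cells the difference of effects passed for 5 genes (0.0248%), all with a lower effect in the spleen. Of the 3 that the naming rule covers, Rab43, a GTPase of membrane traffic that cDC1 need for cross-presentation, had -1.72 ± 0.21 in spleen CD8 cells, against 0.07 ± 0.20 in tumor CD8 cells (difference -1.78 ± 0.29, adjusted p = 0.03, edgeR), but 75.4% of its exon bases overlap another gene model on its strand. Abca3, a lipid transporter, had a difference of -1.79 ± 0.29, adjusted p = 0.03, and Mtmr4, a lipid phosphatase of endosomes, one of -1.55 ± 0.25, adjusted p = 0.03 (edgeR). The count was 0 without LCL161 spleen replicate 3 and without tumor vehicle replicate 1 or 3, and 98 without LCL161 spleen replicate 1. The comparisons with CD4 cells and with tumor cells share the spleen CD8 libraries. The other 2 of the 5 were the predicted genes Gm45140, the gene model that overlaps Rab43, with a difference of -1.55 ± 0.22, adjusted p = 0.014, and Gm8221, with -3.65 ± 0.50, adjusted p = 0.013 (edgeR), named after their values were seen.

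Of the 7 NF-kB feedback genes that rose, none passed either test of a difference. Nfkbia had log2 fold changes of 1.76 ± 0.19 in spleen CD8, 1.42 ± 0.19 in spleen CD4 and 1.79 ± 0.19 in tumor CD8 cells. Nfkbiz had 3.03 ± 0.42, 1.78 ± 0.40 and 2.09 ± 0.40 in these populations, and Zc3h12a 1.91 ± 0.42, 1.89 ± 0.41 and 2.38 ± 0.42. Gzmb had 2.73 ± 0.66, -1.35 ± 0.64 and -0.11 ± 0.62, with a difference from CD4 cells of 4.08 ± 0.92, adjusted p = 0.063 (edgeR), which missed the threshold. Ifng had 2.63 ± 0.67, 1.31 ± 0.64 and 0.13 ± 0.63, and its differences did not pass either. Wdfy4 had -3.32 ± 0.57, -0.47 ± 0.52 and -0.06 ± 0.52, with adjusted p of 0.1 and 0.15 for the differences (edgeR).

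**Figure D5:**
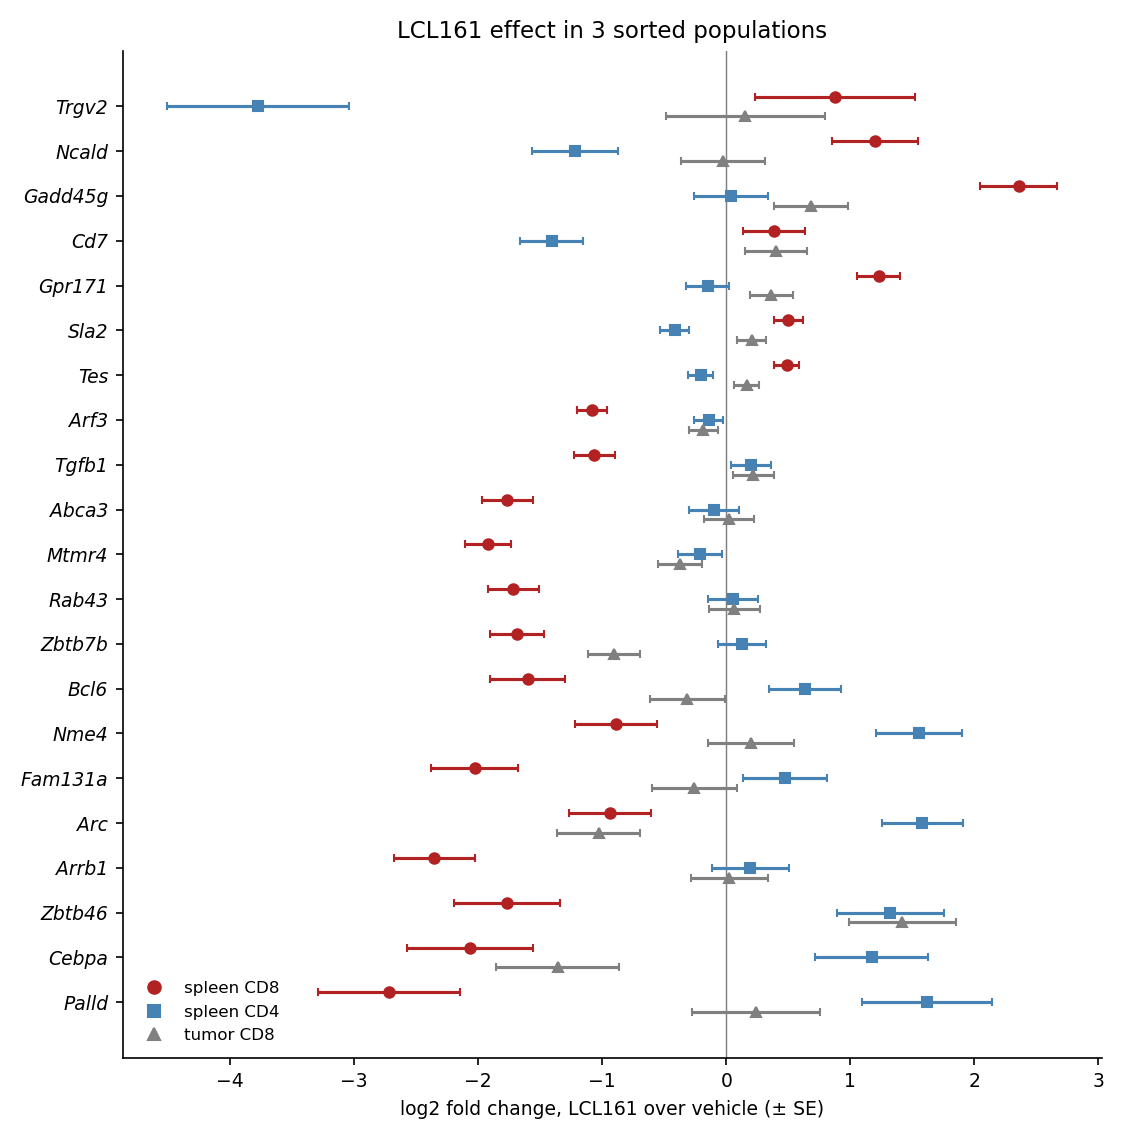
Log2 fold change of LCL161 over vehicle (± SE, 3 against 3 libraries) of 21 genes in spleen CD8, spleen CD4 and tumor CD8 cells. The SE rest on a spread estimated over all 24 libraries. Each gene passed the test of the difference between spleen CD8 and spleen CD4 cells, and Rab43, Mtmr4 and Abca3 passed that between spleen and tumor CD8 cells.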

How the data were processed

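RNA-seq libraries of the series were analysed as one table. Per the submitters' processing notes, reads were trimmed with cutadapt and aligned with STAR 2.7.3a to GRCm38. The sources used here do not give the counting tool, the annotation or the strand setting. The authors deposited expected counts for 55025 gene symbols in 24 libraries, of which 52.7% of non-zero values are not whole, and these were rounded before testing. No library was left out. Within the spleen CD8 groups every pair of replicates differed by more than counting error (chi-square per gene 15.4 to 62.7), and pairs of the other groups were not compared.

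Genes kept by filterByExpr (minimum count 10) were scaled by TMM and fitted in 8 groups with edgeR 4.0.16 (robust quasi-likelihood, 16 residual degrees of freedom, R 4.3.3). P-values were adjusted within each contrast over 20174 genes, and 0.05 was the threshold. Levels are CPM on scaled library sizes and log2 fold changes are LCL161 over vehicle with their SE, n = 3 libraries a group. The CPM of a list is the sum over its genes. Genes are named by rule: the 25 largest rises and falls, the 15 most abundant of each at 2-fold or more, the members of each list with the lowest adjusted p (at most 6), the 8 largest differences of effects each way, and a panel. The first 2 of these need groups that do not overlap and a mean of at least 5 CPM. Members and lists were chosen with earlier results of these data known. Coordinates and overlaps are from GENCODE M21, which holds 53529 of the symbols, and promoter windows are from RefSeq.

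Other settings were DESeq2 1.42.0, limma 3.58.1 voom with sample weights, RLE or no scaling, no filter or one of 5 CPM in 3 libraries, unrounded counts, only the libraries compared, a replicate block and each library left out. After the data had been seen, corrections for transcript length and GC content were added. The fits were tested on simulated data. Tables and figures used Python 3.11.15, pandas 2.3.3, numpy 2.4.6 and matplotlib 3.10.9.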

Additional observations from a re-analysis of the deposited data

Results flagged for a closer look

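For 21 of the genes of the naming rule, and for 2 predicted genes outside it, the effect of LCL161 in spleen CD8 cells differed from that in spleen CD4 cells or in tumor CD8 cells by a test of the difference itself (edgeR, adjusted p under 0.05), and these are the results singled out.

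The effect was higher in spleen CD8 than in spleen CD4 cells for Gadd45g, by 2.32 ± 0.43, adjusted p = 0.026, for Gpr171, by 1.38 ± 0.25, adjusted p = 0.026, and for Sla2, by 0.92 ± 0.17, adjusted p = 0.026 (log2 ± SE, edgeR). It was also higher for Trgv2, by 4.65 ± 0.97, adjusted p = 0.0499, for Ncald, by 2.41 ± 0.49, adjusted p = 0.045, for Cd7, by 1.79 ± 0.36, adjusted p = 0.04, and for Tes, by 0.69 ± 0.15, adjusted p = 0.0499 (edgeR).

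It was lower for Palld, with a difference of -4.34 ± 0.78, adjusted p = 0.026, for Cebpa, with -3.24 ± 0.68, adjusted p = 0.0499, for Arc, with -2.52 ± 0.47, adjusted p = 0.026, for Fam131a, with -2.50 ± 0.48, adjusted p = 0.035, and for Nme4, with -2.44 ± 0.48, adjusted p = 0.039 (edgeR). It was lower for Zbtb46, with a difference of -3.09 ± 0.61, adjusted p = 0.039, for Arrb1, with -2.55 ± 0.45, adjusted p = 0.026, for Bcl6, with -2.24 ± 0.42, adjusted p = 0.028, and for Zbtb7b, with -1.81 ± 0.29, adjusted p = 0.026 (edgeR). It was also lower for Rab43, with -1.77 ± 0.29, adjusted p = 0.026, for Mtmr4, with -1.71 ± 0.25, adjusted p = 0.025, for Abca3, with -1.67 ± 0.29, adjusted p = 0.026, for Tgfb1, with -1.26 ± 0.23, adjusted p = 0.026, and for Arf3, with -0.94 ± 0.17, adjusted p = 0.026 (edgeR). For the predicted genes it was lower by a difference of -1.48 ± 0.22, adjusted p = 0.025 for Gm45140 and -3.07 ± 0.51, adjusted p = 0.026 for Gm8221 (edgeR).

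Against tumor CD8 cells the differences were -1.78 ± 0.29, adjusted p = 0.03 for Rab43, -1.79 ± 0.29, adjusted p = 0.03 for Abca3 and -1.55 ± 0.25, adjusted p = 0.03 for Mtmr4 (edgeR). They were -1.55 ± 0.22, adjusted p = 0.014 for Gm45140 and -3.65 ± 0.50, adjusted p = 0.013 for Gm8221 (edgeR). The spleen CD8 libraries enter both sets of differences.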

How the results depend on the processing

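The 1670 genes past the threshold were 990 with no filter, 2529 by DESeq2 and 7141 by limma voom, and 246 to 1702 with 1 of the 6 libraries left out. No sign was seen that the replicate numbers pair the libraries, but correlations over all genes with 3 libraries a group cannot exclude it. Same-numbered libraries deviated together with correlations of 0.030, 0.016 and -0.020, and LCL161 replicate 3 correlated best with vehicle replicate 2. A fit with the replicate block gave 1479 genes. The other planned settings and both added corrections left the count within 1.5 times, and 0 of the 174 named genes that passed changed sign under any setting. The 59 differences from spleen CD4 were 34 with no scaling, 34 with no filter, 134 with the 5 CPM filter, 506 by DESeq2, 588 by limma voom, 3 with only the libraries compared, 13 with the length and GC correction, and 0 to 314 with 1 library left out. The 5 differences from tumor CD8 were 2, 5, 20, 180, 863, 113 and 7 under the same settings in turn, and 0 to 98 with 1 library left out. Beside the count of 0 stand 2436 genes at an unadjusted p under 0.05 for CD4 and 1823 for tumor CD8, with all libraries in. Of the genes named that did not pass, 6 changed sign. Birc2 had log2 fold changes of -0.00537 with RLE scaling, -0.011 with no filter, -0.013 by DESeq2, -0.00655 with only the libraries compared, and -0.0722 to 0.0519 with 1 library left out. With 1 library left out Cd8a ran from -0.0296 to 0.203, Cd4 from -0.462 to 0.0324 and Cd8b1 from -0.17 to 0.197, and Cd8b1 was -0.02 with the length correction and -0.0172 with length and GC. Mki67 was -0.10 by limma voom and -0.405 to 0.714 with 1 library left out. Xiap was 0.24 with the length correction and 0.0239 with length and GC. The cause was not tested. At these totals 1 CPM is about 20 counts in a library, so levels near or under it carry wide counting error.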
